A study of Mus musculus with 91 samples.

Results

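The 100 genes with the highest expression in D1 relative to D2 neurons of the mouse nucleus accumbens were followed over time of day, sex and the letter in each library's title. They are called D1-enriched genes or members here, and member 1 has the largest difference. The members were chosen by the difference between the mean of the D1 libraries and the mean of the D2 libraries, in log2 CPM (CPM is a gene's count scaled to a fixed total per library). They were taken from the 11810 genes with a mean of at least 5 CPM, out of 14355 genes counted. The counts pair no identifier with a gene name and 0 of the 14355 identifiers could be matched to one, so members are given by rank. The D1 and D2 labels could therefore not be checked against marker genes, no sequence is shown, and no member's role can be given.

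D1 and D2 neurons are the main classes of medium spiny projection neuron of the nucleus accumbens, a part of the ventral striatum that takes part in reward and motivation. D1 neurons carry the dopamine receptor that stimulates cyclic AMP production, and D2 neurons carry the inhibitory dopamine receptor together with the adenosine A2a receptor. Genes that differ between the classes include receptors, neuropeptide precursors and signalling proteins.

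Ribosome-associated mRNA was sequenced in 91 libraries, 45 from Drd1-Cre and 46 from A2a-Cre mice, both crossed to RiboTag mice. In RiboTag mice Cre switches on a ribosomal protein, Rpl22, with a hemagglutinin tag, so that an antibody pulls down the ribosomes of Cre-expressing cells with their mRNA. Nucleus accumbens tissue of 2 mice was pooled for each sample. The mice were over 10 weeks old and lived under 12 h of light and 12 h of dark. Females and males were sampled at 6 Zeitgeber times, in hours since lights on, written ZT2, ZT6, ZT10, ZT14, ZT18 and ZT22. The 24 groups of cell type, sex and time hold 3 or 4 libraries each. The D1 libraries came from 23 female and 22 male samples, and the D2 libraries from 23 of each sex. Each library carries a letter from A to E, whose meaning the labels do not give. Letter E is 1 D1 library. No D1 library of letter B was taken at ZT18, so time and letter are not fully separate in D1. Cre line and cell type cannot be told apart. The labels do not say more about how replicates of a group were kept separate, so p-values measure the spread between these samples.

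Library totals ran from 6872165 to 24665262 counts, with 8556069 to 19297403 in D1 and 6872165 to 24665262 in D2. In D2 the totals differed by letter, with a mean of 19727000 for A, 16241700 for B, 11336300 for C and 10904585 for D. The male D1 libraries ZT10 B, ZT22 B and ZT18 D stood apart, with 205 to 789 genes at 0 counts, against a median of 0 and at most 3 in the other D1 libraries. The median deviation of the members from their D1 mean was -0.10, 0.45 and -0.10 log2 in ZT10 B, ZT22 B and ZT18 D. Of these, ZT22 B was the highest of all D1 libraries on this measure. Counts of members called for rhythm, sex and letter in D1 are given with and without these libraries.

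Among the 100 members, D1 exceeded D2 by 0.49 to 2.85 log2 with a median of 0.68, a 1.60-fold difference. Fold differences are taken from mean log2 CPM throughout, so they can differ from ratios of the CPM means or medians given. These values chose the members and are given as a description. A difference above 1 log2, which is 2-fold, was reached by 16 members, and 69 exceeded 1.5-fold. Over all 11810 genes the median difference was 0.01 log2. Because whole tissue went into the pull-down, fewer cells making a transcript and less transcript per cell cannot be told apart. Mean levels in D1 ran from 6.38 to 405.7 CPM with a median of 28.5. They lay under 10 CPM for 17 members and over 100 CPM for 19. CPM is not scaled by gene length, so levels are compared within a gene only.

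Member 1 (ENSMUSG00000027400) had 126.1 CPM in its lowest D1 library, a median of 279.0 and 452.9 in its highest. In the D2 libraries the same gene had 27.7 CPM at the lowest, a median of 37.5 and 52.0 at the highest. The lowest D1 library thus lay above the highest D2 library. The means were 286.3 ± 74.7 CPM (SD, n = 45) in D1 and 38.9 ± 6.89 CPM (SD, n = 46) in D2, a 7.20-fold difference. Member 2 (ENSMUSG00000050473) ran from 29.9 to 84.8 CPM in D1 with a median of 56.0, and from 7.31 to 18.0 CPM in D2 with a median of 12.5. Its difference was 4.21-fold, again without overlap between the cell types.

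Member 3 averaged 281.5 ± 63.0 CPM in D1 and 70.5 ± 14.9 CPM in D2 (SD, n = 45 and 46). Member 4 was the tightest of the leading genes: its mean was 110.4 ± 9.59 CPM over the D1 libraries and 30.5 ± 2.50 CPM over the D2 libraries. Its libraries ran from 91.7 to 136.9 CPM in D1 and from 24.5 to 36.6 CPM in D2. Member 4 therefore kept its level in each cell type within a narrower band than member 1. Member 5 averaged 68.7 ± 14.8 against 19.1 ± 4.53 CPM, and member 6 averaged 305.5 ± 60.6 against 89.1 ± 10.0 CPM. Members 1 to 6 all kept every D1 library above every D2 library.

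Separation of all libraries held for 11 members, those ranked 1 to 6, 8 to 11 and 24. They are 0.0931% of the genes with at least 5 CPM, a share that the choice of members fixes. Member 24 is the lowest ranked of them. It ran from 237.8 to 525.7 CPM in D1 and from 114.2 to 231.4 CPM in D2, a 1.81-fold difference. Member 7 had a larger difference, 3.12-fold, and overlapped: 42 of its 45 D1 libraries lay above every D2 library. Member 7 ranged from 38.5 to 204.1 CPM in D1 and from 16.6 to 51.3 CPM in D2.

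**Figure D1:**
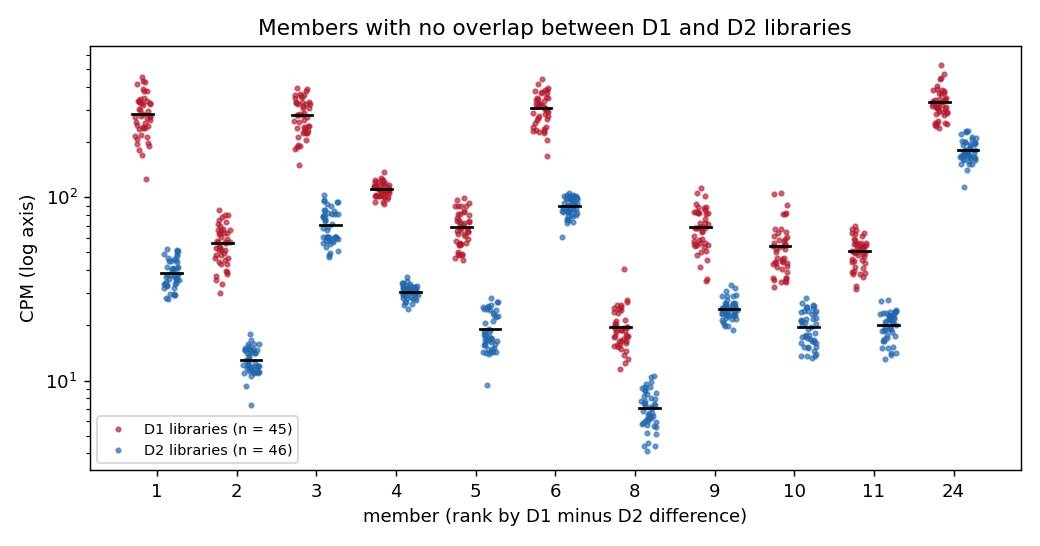
CPM on a log axis in each D1 (red) and D2 (blue) library for the 11 members whose libraries did not overlap; black bars are means, and points are spread sideways for legibility. The gap is widest for member 1, at 286.3 against 38.9 CPM, and narrowest in fold for member 24, at 329.5 against 180.3 CPM.

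Further down the ranking the cell types overlapped. For 25 members fewer than 10 D1 libraries lay above every D2 library, and for 4 members no D1 library did. Member 25 is an example of overlap among the higher ranks: it ran from 4.50 to 43.2 CPM in D1 and from 2.12 to 36.4 CPM in D2, and 3 D1 libraries exceeded every D2 library. Its difference was 1.79-fold, with medians of 12.2 CPM in D1 and 6.32 CPM in D2 and wide spread in both. Member 22 had 15 D1 libraries above every D2 library and ran from 43.5 to 198.9 CPM in D1 and from 19.7 to 144.4 CPM in D2.

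The limit of 100 fell in a stretch of near-equal differences. Members 98, 99 and 100 differed by 0.50, 0.49 and 0.49 log2, and the next 3 genes in the ranking by 0.48 log2 each. Member 99 averaged 360.7 ± 87.0 CPM in D1 and 259.4 ± 75.2 CPM in D2, and 7 of its D1 libraries lay above every D2 library. The first gene outside the limit averaged 210.0 ± 41.4 and 150.1 ± 30.8 CPM, also with 7. For members 98 and 100 the counts were 23 and 13, and for the next genes outside the limit 12 and 3. All 6 genes overlapped between cell types.

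The difference was also described within strata of sex and time and within letters. These are parts of the difference that chose the members, so mostly positive signs follow from the choice. Of the 100 members, 88 were higher in D1 in all 12 combinations of sex and time, 11 in 11 of them and 1 in 10. By time, the median difference over the members was 0.80 log2 at ZT2, 0.65 at ZT6, 0.63 at ZT10, 0.75 at ZT14, 0.62 at ZT18 and 0.72 at ZT22. By sex it was 0.68 in females and 0.67 in males. By letter it was 0.69 in A, 0.77 in B, 0.65 in C and 0.72 in D, and 99 members were higher in D1 in all 4 letters.

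**Figure D2:**
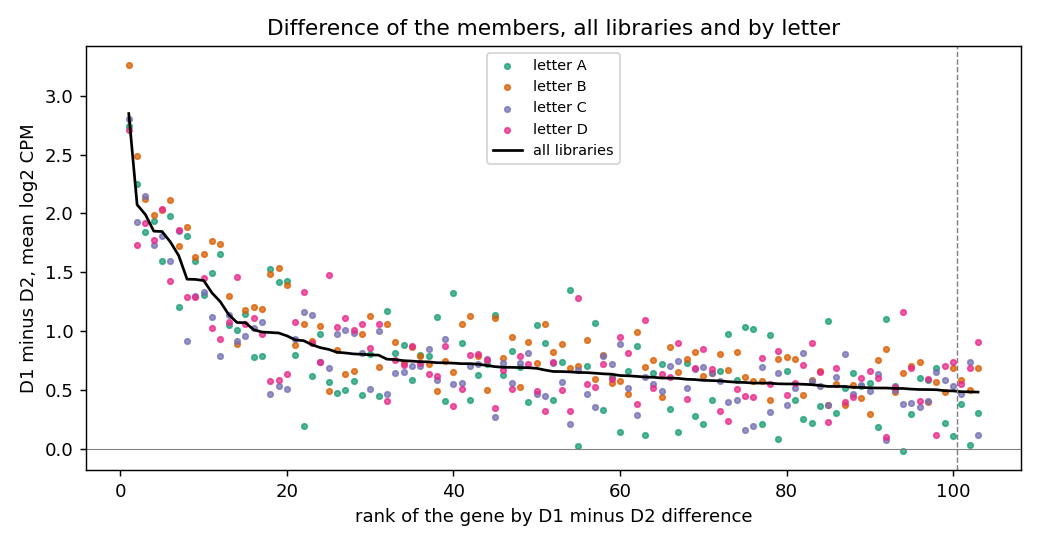
D1 minus D2 difference in mean log2 CPM against rank, for the 100 members and the next 3 genes (right of the dashed line); the black line is the difference over all libraries and coloured points are the differences within letters A to D. The line falls from 2.85 at rank 1 to 0.49 at rank 100, and points of single letters scatter around it down to -0.02 in letter A.

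Choosing genes without a letter and measuring them in that letter gives sizes that the choice did not use. When the 100 genes were chosen on the other letters, 80 had a positive difference in letter A, with a median of 0.41 log2 against 0.70 in the letters that chose them. The same measure in letter B was 0.76 log2, with 98 of 100 positive. It was 0.60 log2 with 96 positive in letter C, and 0.65 log2 with 95 positive in letter D. Among all 11810 genes, 5671 were positive in letter A, 5811 in B, 6150 in C and 5975 in D. Letter A was thus the letter in which genes chosen elsewhere had the smallest median difference.

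Rhythm over the day was tested with a cosine curve of 24 h, fitted with edgeR's quasi-likelihood test, with p-values adjusted over all 14355 genes by Benjamini-Hochberg and called under 0.05. In D1 neurons 2 members passed, against 71 genes or 0.495% of all genes. Before adjustment 20 members had p under 0.05, against 12.6% of all genes. Without the 3 libraries that stood apart 1 member passed, against 1.23% of all genes. Without any one of letters A to D no member did, against 0.0906% to 0.376% of all genes. In D2 neurons 1 member, member 80, passed, against 2.94% of all genes, and it did not pass without any one letter. Without letter A or D 1 other member passed each time, against 1.82% and 1.19% of all genes. Without letter B or C 0 members passed, against 0.738% and 0.383% of all genes. Limma voom with quality weights called 13 members in D2, against 21.2% of all genes. The letters pair the D2 libraries, and with letter as a block 18 members passed, against 22.3% of all genes. The share of members with a D2 rhythm thus lay near or below that of all genes in both fits. With the 6 times as a factor in place of the curve, 0 members passed in D1, against 0.181% of all genes. In D2 that fit also called 0 members, against 0.634%.

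Member 49 (ENSMUSG00000019890) had the larger D1 rhythm of the called members, with an amplitude (mean to peak) of 0.43 log2, a fitted peak at ZT 2.88 and an edgeR adjusted p of 0.0485. Its D1 mean was 64.4 ± 19.0 CPM at ZT2 (SD, n = 8) with libraries from 32.3 to 90.0. It was 50.0 ± 16.0 CPM at ZT6, 40.0 ± 11.1 at ZT10 and 36.4 ± 12.4 at ZT14. The lowest mean, 33.3 ± 6.45 CPM, came at ZT18 (n = 6) with libraries from 25.8 to 42.7, and ZT22 had 46.4 ± 19.2 CPM. The ZT18 libraries lacked letter B, in which the D1 mean of member 49 was highest, at 64.0 ± 17.0 CPM. Its low at ZT18 is thus not fully separate from the letters. Libraries of ZT2 and ZT18 overlapped, and member 49 did not pass without the 3 libraries that stood apart (edgeR adjusted p = 0.0548) or without any one letter (0.140 to 0.397). In D2 its means lay between 24.8 and 30.7 CPM at all 6 times, with an adjusted p of 0.887. Its rhythm was not called different between the cell types (edgeR adjusted p = 0.633).

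Member 32 (ENSMUSG00000033063) had a smaller D1 amplitude, 0.16 log2, with a fitted peak at ZT 4.91 and an edgeR adjusted p of 0.0403. Its D1 mean was highest at ZT6, at 85.3 ± 6.16 CPM (SD, n = 8), and lowest at ZT14, at 67.9 ± 7.28 CPM (n = 7). The libraries ran from 77.3 to 94.4 CPM at ZT6 and from 52.2 to 73.8 CPM at ZT14, so these 2 times did not overlap. Without any one letter it did not pass (edgeR adjusted p of 0.0554 to 0.637). In D2 its means ran from 41.6 CPM at ZT14 to 49.5 CPM at ZT2. The D2 amplitude was 0.14 log2 with an adjusted p of 0.71, and with letter as a block it passed with an amplitude of 0.12 log2, a fitted peak at ZT 2.78 and an edgeR adjusted p of 0.00404.

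Member 80 (ENSMUSG00000048218) was called in D2, with an amplitude of 0.23 log2, a fitted peak at ZT 17.1 and an edgeR adjusted p of 0.0344. Its D2 mean was 5.67 ± 1.18 CPM at ZT6 (SD, n = 7) and 7.87 ± 0.883 CPM at ZT18 (n = 8). Libraries ran from 3.41 to 6.64 CPM at ZT6 and from 6.54 to 9.34 CPM at ZT18, which overlapped slightly. With letter as a block its edgeR adjusted p was 0.00318, and without any one letter and no block it was 0.0879 to 0.292. In D1 its means ran from 8.66 CPM at ZT6 to 11.7 CPM at ZT14 without a call (edgeR adjusted p = 0.717).

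**Figure D3:**
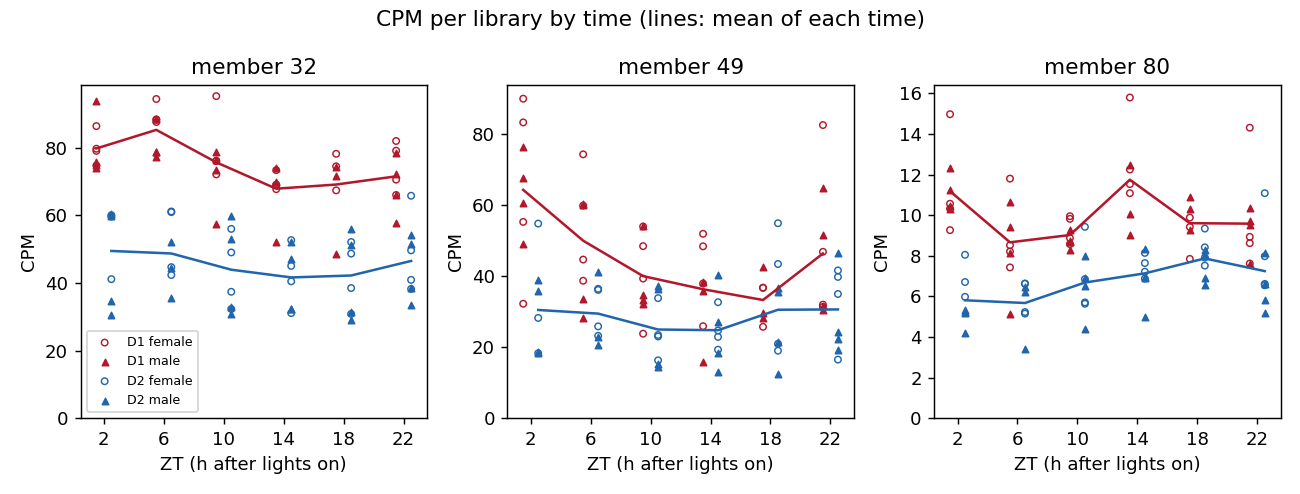
CPM against ZT for members 32, 49 and 80 in each library, D1 in red and D2 in blue, with females as open circles, males as filled triangles and lines through the mean of each time. D1 levels of member 49 fall from 64.4 CPM at ZT2 to 33.3 CPM at ZT18, and D2 levels of member 80 rise from 5.67 CPM at ZT6 to 7.87 CPM at ZT18.

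The leading members did not pass the rhythm test in D1. Member 1 (ENSMUSG00000027400) averaged 332.5 ± 73.3 CPM at ZT2, 328.6 ± 74.0 at ZT6, 266.5 ± 67.8 at ZT10, 251.3 ± 62.2 at ZT14, 251.3 ± 53.6 at ZT18 and 274.7 ± 83.2 at ZT22. Letter B, in which the D1 mean of member 1 was highest, was missing at ZT18. Libraries of every time overlapped, and the edgeR adjusted p was 0.249 with an amplitude of 0.23 log2. Its D2 means stayed between 36.5 and 40.4 CPM. Member 2 (ENSMUSG00000050473) had 65.6 ± 14.7 CPM at ZT2 and 47.8 ± 11.0 CPM at ZT18 in D1, with an edgeR adjusted p of 0.220.

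The 18 members called in D2 with letter as a block had amplitudes of 0.09 to 0.38 log2. Their fitted peaks lay in the light phase, from ZT0 to ZT12, for 13 and in the dark phase for 5. Members 52 and 71 lay close to the boundary, at ZT 11.4 and ZT 12.2. Peaks of all genes called in this fit were not counted, so no trait of the members is read from this. Members 32 and 80 were among them and member 49 was not.

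The time of the highest mean was counted for every member, with no test. In D1, 57 of the 100 members had their highest mean log2 CPM at ZT2, against 34.1% of all genes with at least 5 CPM. Without the 3 libraries that stood apart the count was 62 against 38.0%. It was 34 against 28.4% in females and 51 against 28.7% in males. Without letter A it was 32 against 27.1%, and ZT14 then held more members, 33 against 9.13% of all genes. Without B, C or D the count at ZT2 was 57, 61 and 57. In D2, 43 members were highest at ZT6, against 20.1% of all genes, and 17 at ZT2. The ZT6 count was 46 in females, against 15.9% of all genes, and 17 in males, against 21.5%. Without letter A it was 22 against 19.6%. In males and without letter A, ZT2 held more members than ZT6, 30 and 27. Members move together across libraries, so these counts are not counts of independent genes.

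**Figure D4:**
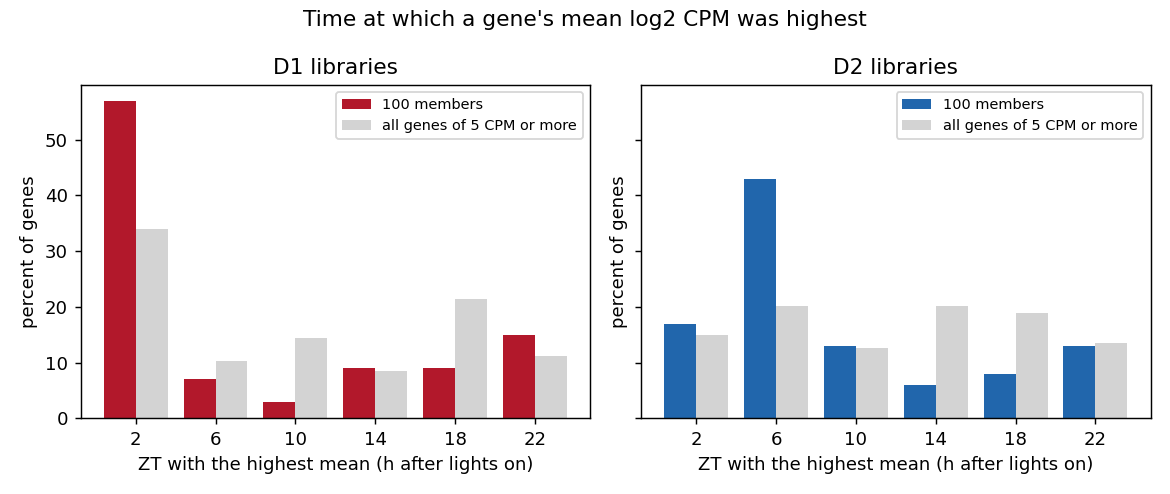
Share of genes whose mean log2 CPM was highest at each ZT, for the 100 members (coloured) and for all genes with at least 5 CPM (grey), in D1 and D2 libraries. In D1 the tallest member bar is at ZT2, 57% against 34.1%, and in D2 at ZT6, 43% against 20.1%.

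Rhythm was not called different between the cell types for any member (edgeR), against 2 genes or 0.0139% of all genes. Before adjustment 10 members had p under 0.05, against 8.46% of all genes. DESeq2 called 0 members, against 0.223% of all genes. Limma voom with quality weights called 11, against 15.8% of all genes, and edgeR with letter as a block within cell type 5, against 3.24%.

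No member was called between the sexes in D1 by edgeR, against 0.0418% of all genes, and 13 had p under 0.05 before adjustment, against 15.5% of all genes. Without the 3 libraries that stood apart edgeR also called 0, and 3 members had p under 0.05 before adjustment, against 6.92% of all genes. DESeq2, which gave no adjusted p for 70 members, and limma voom also called 0, against 0.39% and 0.104% of all genes. Without letter B 1 member passed in D1, against 2.05% of all genes. In D2 edgeR called 0 members, against 0.216% of all genes, with 11 under 0.05 before adjustment against 3.59%. DESeq2 and limma voom called 0 members in D2, against 0.307% and 0.334% of all genes. With letter as a block in D2, 8 members passed, against 9.45% of all genes. Of these, 7 were higher in males, by 0.16 to 0.50 log2, and 1 was higher in females. Among all 1357 genes called in this fit, 719 were higher in males. The sex difference was not called different between the cell types for any member by edgeR, where 0% of all genes passed. Before adjustment 3 members had p under 0.05, against 6.33% of all genes. DESeq2, with no adjusted p for 89 members, and limma voom called 0 there as well, against 0.111% and 0% of all genes. The fitted sex difference was positive, that is higher in males, for 69 members in D1 against 52.2% of all genes, and for 67 in D2 against 54.6%.

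The letters were compared in the same way. In D1, 62 members passed the test between letters, against 52.5% of all genes, and 69 did without the 3 libraries that stood apart, against 62.7%. Without letter C 40 passed, against 28.8%. In D2, 83 passed, against 85.6%. Both counts are near the share of all genes. Letter accounted for a median of 25.5% of a member's variance in D1, against 25.8% for all genes with at least 5 CPM, and for 45.7% in D2, against 65.6%. Time accounted for a median of 11.4% in D1, against 11.3% for all genes, and for 6.75% in D2, against 5.18%. Sex accounted for 1.34% in D1, against 2.76%, and for 2.12% in D2, against 1.18%. Some share arises even without any difference between groups, and it grows with the number of groups. The shares were not corrected for this, so they do not measure an effect of time, sex or letter. They can be set against those of all genes for the same factor, but not factor against factor. The time shares of the members were near those of all genes.

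In D1 most members followed a like order of letters. The median deviation over the members was highest in letter B libraries, with a median of 0.21 log2 (n = 9), and 0.14 in letter A (n = 12). It was -0.17 in letter C (n = 12), -0.10 in letter D (n = 11) and -0.27 in the letter E library. The D1 mean was highest in letter B for 59 members and in letter A for 33, and lowest in letter C for 70. In D2 the mean was highest in letter A for 61 members and lowest in letter C for 47. Neither set of counts was made over all genes, so an order particular to the members cannot be read from them. The D1 order was not repeated without the 3 libraries that stood apart, which include ZT10 B and ZT22 B. Total counts also moved with the letter, and their part in these differences was not tested.

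Member 1 (ENSMUSG00000027400) followed that order in D1, with 307.4 ± 49.8 CPM in letter A (SD, n = 12), 376.5 ± 59.4 in B (n = 9), 240.5 ± 51.6 in C (n = 12) and 246.2 ± 58.3 in D (n = 11). In D2 it had 45.6 ± 5.35 CPM in A, 39.3 ± 7.06 in B, 33.9 ± 4.58 in C and 36.6 ± 4.67 in D. The variance share of letter in D1 was 71.4% for member 69, 66.1% for member 19 and 51.6% for member 53, the highest of the 100. It was 2.15% for member 75, 3.52% for member 27 and 3.68% for member 51, the lowest.

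The range between letter means exceeded the member's own D1 minus D2 difference for 19 members in D1 and 35 in D2. The range between time means did so for 7 and 2. In D1 the members moved together: the deviations of a pair of members correlated with a median Pearson r of 0.35 over 45 libraries, against 0.00 for pairs of all genes, and 0.45 without the 3 libraries that stood apart. In D2 the median r was 0.11 over 46 libraries. The first principal component of the members carried 40.2% of the variance in D1, where 94 members had the sign of member 1, and 49.4% in D2, where 62 did. These correlations share library, depth and scaling and are given as a description.

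Whether the size of the D1 minus D2 difference itself depended on the letter was tested in 90 libraries of letters A to D, in a test added after the data were seen. It did for 62 members (edgeR, adjusted p under 0.05), against 64.8% of all genes, so the members' count is near the background. Among the 11 members without overlap 9 passed. Without letter A 19 members passed, against 10.1% of all genes. Letter B gave the largest difference for 40 members and letter D for 31, and letter A gave the smallest for 43. The same was not counted over all genes.

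Letters A and C were set side by side as a description, and other pairs of letters were not. The difference was larger in A for 49 members and in C for 51, so the members had no common direction. A minus C ran from -0.97 to 1.14 log2, with a median of -0.02, against -0.04 for all genes. The members at those ends, 22 and 54, were chosen after their values were seen. Member 54 had 18.2 ± 2.47 CPM in D1 letter A and 14.7 ± 1.30 in D1 letter C. In D2 it had 7.11 ± 1.47 CPM in letter A and 12.9 ± 3.03 in letter C. In the test of whether the D1 minus D2 difference varied over letters A to D, its edgeR adjusted p was 1.96e-08. Member 22 had 125.6 ± 38.9 CPM in D1 letter A and 105.4 ± 30.9 in D1 letter C. In D2 it had 108.0 ± 30.4 CPM in letter A and 47.8 ± 17.2 in letter C, and its edgeR adjusted p in that test was 5.00e-04. Letters A and C alone were not tested against each other. For both members the D2 level moved more between the letters than the D1 level, in opposite directions. Over the 100 members, D2 was more than 1.5-fold higher in C than in A for 12 and in A than in C for 29. In D1 the counts were 0 and 6. They were not made over all genes, so no trait of the members is read from them. Over all genes with at least 5 CPM the median variance share of letter was also larger in D2, 65.6% against 25.8% in D1.

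**Figure D5:**
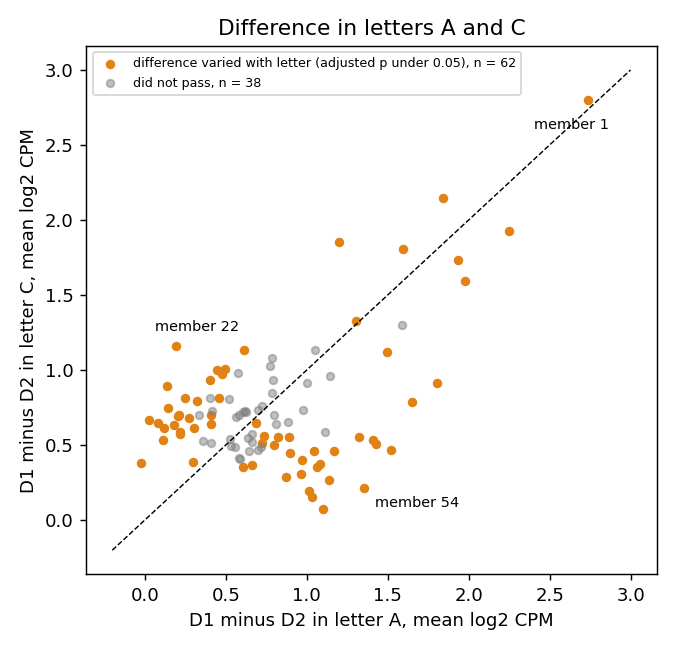
D1 minus D2 difference in mean log2 CPM in letter A (x axis) and letter C (y axis) for the 100 members; orange points are the 62 members whose difference varied with letter (adjusted p under 0.05), and the dashed line marks equality. Members 22 and 54 lie far from the line on opposite sides, with A minus C of -0.97 and 1.14 log2, and member 1 lies near it.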

How the data were processed

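The authors deposited 1 table of unnormalised whole-number counts, with genes in rows and libraries in columns. According to the submitters' processing notes, FastQC 0.11.7, HISAT2 and HTSeq 0.10.0 were used, and GRCm38 and GRCh38 are named without a role. The name of that table mentions a filter on log CPM, whose threshold the labels do not state. The reference table of 49997 entries holds 0 Ensembl identifiers, so 0 of 14355 identifiers were named, and gene and marker lists could not be scored. Every column was matched to 1 library and 0 columns were left out.

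For this work edgeR 4.0.16 (R 4.3.3) was used for TMM scaling, log2 CPM with a prior count of 2, and quasi-likelihood tests. P-values were adjusted by Benjamini-Hochberg over 14355 genes and called under 0.05. D1 and D2 libraries were fitted apart for rhythm, sex (male minus female) and letter, and all libraries together for differences between cell types. Cosine and sine of 24 h were fitted within each sex, and their mean over both sexes was tested for rhythm. Differences in rhythm between the sexes were not tested. DESeq2 1.42.0 and limma 3.58.1 were alternatives. The steps were tested on simulated counts.

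Same-letter libraries deviated together in D2 (243 pairs, all above r = 0.1, lowest 0.19, median 0.72), so letters pair D2. In D1 66.8% of 223 pairs passed, lowest -0.61, so there the letters were not taken to pair libraries.

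The members, lists and alternatives were chosen with earlier results of these data known. Members are described by rule: the 25 with the largest difference, the lowest adjusted p of each test that passed, the 3 on either side of the limit, and the 3 with the largest and smallest share of D1 variance between letters. At most 2 identifiers are given per direction of a comparison.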

Additional observations from a re-analysis of the deposited data

Results flagged for a closer look

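A library far from the others was sought for the CPM of members 1, 2, 32, 49 and 80 among the 6 to 8 libraries of a cell type and time, both sexes together. It was also sought for the median deviation of the members in groups of 4 libraries. In all 79 sets were tested and 4 libraries stood out, where chance gives about 1 in 20 sets. Member 32 was low in the D1 male library ZT14 D, at 52.2 CPM, and in the D1 male library ZT18 D, at 48.6 CPM; the second is one of the 3 libraries that stood apart. Member 80 was high in the D1 female library ZT22 B, at 14.3 CPM, and low in the D2 male library ZT14 A, at 4.98 CPM.

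The D1 minus D2 difference differed between letters A to D for 62 members in the test of that interaction (edgeR), near the share of all genes, 64.8%.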

How the results depend on the processing

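Of 248 alternatives to 34 values of single members, 235 kept direction and any call, 13 lost the call and 0 reversed. Those 13 were the rhythms of members 32, 49 and 80 without a letter, and of member 49 without the 3 libraries that stood apart. Only the rhythms of these members carried a call. The other values had none to lose, so 235 of 248 does not measure how stable the calls were. The fit with time as a factor gives no amplitude and is not among the 248, and there 0 members passed in D1 or D2. Of 100 alternatives to 10 counts, 80 stayed within 1.5 times and 20 moved; except where noted, the cause was not tested. The D1 rhythm count of 2 was 0 with time as a factor, 1 without the 3 libraries, and 0 to 0 over letters left out. The D2 rhythm count of 1 was 2 with DESeq2, against 4.66% of all genes. It was 13 with limma voom, 18 with the replicate block, 0 with time as a factor, and 0 to 1 over letters left out. Rhythm differing between cell types, 0 members, was 11 with voom and 5 with the replicate block within cell type. The D1 sex count of 0 was 8 with the replicate block, against 7.26% of all genes (0 when the 3 libraries were also left out), and 0 to 1 over letters left out; the D2 sex count of 0 was 8 with the replicate block. The replicate block left the D1 rhythm count at 2. Leaving out letters gave 40 to 60 for letters in D1 (62 with all) and 19 to 62 for letter by cell type, lowest without A. A minimum of 20 CPM shared 54 genes with the 100 members, because fewer genes could enter. DESeq2 gave no adjusted p for 70 members in the D1 sex test and 89 in the sex difference between cell types. Genes under 10 CPM rest on few counts.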
